A study of Mus musculus with 4 samples.

Results

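The MICAL enzymes, their MICAL-like relatives and the methionine sulfoxide reductases of the Msrb family were followed over the 4 arrays of the series. They comprise 9 genes of the 18193 that the arrays name, namely Mical1, Mical2, Mical3, Micall1, Micall2, Micalcl, Msrb1, Msrb2 and Msrb3. The members were chosen by name, from the gene symbols that the platform annotation gives to probe sets, and 13 of 45101 probe sets carry such a symbol. Of these, 12 name a single member and 1 names both Mical3 and Gm43915. A gene with several probe sets is represented by its brightest, which is the one of highest mean level.

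The cells were SVEC4-10, a mouse lymph node endothelial line transformed with SV40. The groups were untreated cells, cells transduced with the insert-free pLENTI6/Block-iT lentiviral vector, and cells whose vector carried a short hairpin RNA (shRNA) directed at Mical2 or at Mical3. Transduced cells had been selected with blasticidin, and the untreated cells had received no vector. Each group has 1 array, for which the RNA of 3 biological replicates was pooled, so that no spread between replicates can be seen and no test can be run. In RNA of a whole culture, fewer cells of a type and less RNA per cell cannot be told apart.

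MICAL proteins are flavin-dependent monooxygenases that use NADPH to oxidise methionines of actin, which takes filaments apart. Msrb enzymes reduce that form of methionine sulfoxide again, so that the oxidation of actin can be reversed. In the nucleus MICAL2 acts on actin in a way that frees the MRTF cofactors of the transcription factor SRF, and the study asked which transcripts of endothelial cells depend on MICAL2. The MICAL-like proteins lack the monooxygenase domain and serve as adaptors of Rab GTPases in membrane traffic.

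The hairpins are shown first because the comparisons rest on them. Each is 66 bases long, with a stem of 23 bases and a loop of 9, and the capitals mark the sense arm, which has the letters of the intended target site:

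Mical2 hairpin: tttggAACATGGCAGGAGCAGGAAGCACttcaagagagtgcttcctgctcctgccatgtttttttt

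Mical3 hairpin: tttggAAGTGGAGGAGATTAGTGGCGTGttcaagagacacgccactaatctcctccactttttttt

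The stems hold 13 G or C bases for Mical2 and 12 for Mical3, and the longest run of letters they share has 5 bases. The arms that pair with the target are given next, with bases 2 to 8 from the 5′ end, the seed, in capitals. Which arm the cells used and where it was cut were not measured, and the place of the sites in the transcripts was not analysed here.

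Mical2 antisense arm: gTGCTTCCtgctcctgccatgtt

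Mical3 antisense arm: cACGCCACtaatctcctccactt

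Values below are log2 levels from RMA, which corrects background, gives all arrays the same distribution and merges the probes of each probe set into 1 value. The array medians ran from 5.4 to 5.44, and a floor was set at 5.41, the median of the whole table. A gene is called higher or lower when it differed by at least 1 on the log2 scale, which is 2-fold, where at least 1 of the levels compared reached the floor. For a hairpin array, both the vector and the untreated array had to be passed in 1 direction. A call is a statement of size on these arrays and carries no p-value. The spread between probe sets was gauged by the brightest 2 of a gene, compared over 5198 genes. Its SD was 0.34 when the Mical2-labelled array was set against the vector array. It was 0.36 for the Mical3-labelled array and 0.26 for vector against untreated. This spread leaves out variation between cultures and is not the error of a difference.

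The endothelial label was set against its markers. Of 12 endothelial genes, 8 lay below the floor on every array, and these were Pecam1, Cdh5, Tek, Tie1, Emcn, Cldn5, Robo4 and Erg. Kdr, Flt1, Eng and Esam lay above it on all 4 arrays, with Flt1 from 7.70 to 7.76. The lymphatic markers Prox1 and Lyve1 were below the floor, whereas Pdpn was between 11.67 and 12.50. Flt4, the receptor of VEGF-C, read 9.18 untreated, 8.90 with the vector, 7.66 on the Mical2-labelled array and 7.55 on the Mical3-labelled array, and was called lower against both controls on both hairpin arrays. A dimmer Flt4 probe set read 6.57, 6.43, 6.04 and 6.15 and did not reach 2-fold. The summed linear level of the 12 endothelial genes ran from 676 to 707 across the arrays. Since 8 of the 12 lay below the floor, this narrow range says little about endothelial markers.

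The oxidases come first, since 2 of them were targeted. The brighter Mical2 probe set read 5.6 on the untreated array, 5.14 on the vector array, 5.53 on the Mical2-labelled array and 6.08 on the Mical3-labelled array. The dimmer one read 5.33, 4.64, 5.53 and 6.0, listed likewise. In both probe sets the vector array was lowest and the Mical3-labelled array highest, and the Mical2-labelled array was not the lowest in either. Its differences were 0.39 and 0.89 from the vector array and -0.07 and 0.20 from the untreated array. These levels lie close to the floor, with 3 and 2 arrays at or above it, where RMA compresses differences. From the Mical3-labelled array the Mical2-labelled array differed by -0.55 and -0.47, short of 2-fold. A Mical2 transcript lower on the Mical2-labelled array than on both controls was therefore not seen. Transcript levels thus do not bear out the label of this array, nor that of the Mical3-labelled array as described next, and the hairpin arrays are called by their labels throughout.

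Mical3, a MICAL also known for vesicle docking at the cell cortex, read 7.39 on the untreated array, 7.29 on the vector array, 6.83 on the Mical2-labelled array and 7.24 on the Mical3-labelled array. Its lowest level was thus on the Mical2-labelled array, 0.46 below the vector array, a difference that 22.7% of the genes tested matched or exceeded in that direction. On the Mical3-labelled array it differed by -0.05 from the vector array and by -0.15 from the untreated array. The probe set shared with Gm43915 stayed below the floor, between 4.71 and 4.90, with its lowest reading on the Mical3-labelled array.

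Mical1, the founding vertebrate family member and the enzyme whose effect on actin Msrb1 was shown to reverse, varied more. Its brighter probe set read 7.59 on the untreated array, 8.0 on the vector array, 8.0 on the Mical2-labelled array and 6.82 on the Mical3-labelled array. The dimmer probe set read 6.90, 7.43, 7.51 and 6.37, listed likewise, so that both put the arrays in like order, with the Mical3-labelled array lowest. The difference between the hairpin arrays was 1.18 by the brighter and 1.14 by the dimmer probe set, a linear ratio of 2.27 for the brighter. The Mical3-labelled array stood 1.18 below the vector array but only 0.77 below the untreated array, so Mical1 was not called against both controls.

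**Figure D1:**
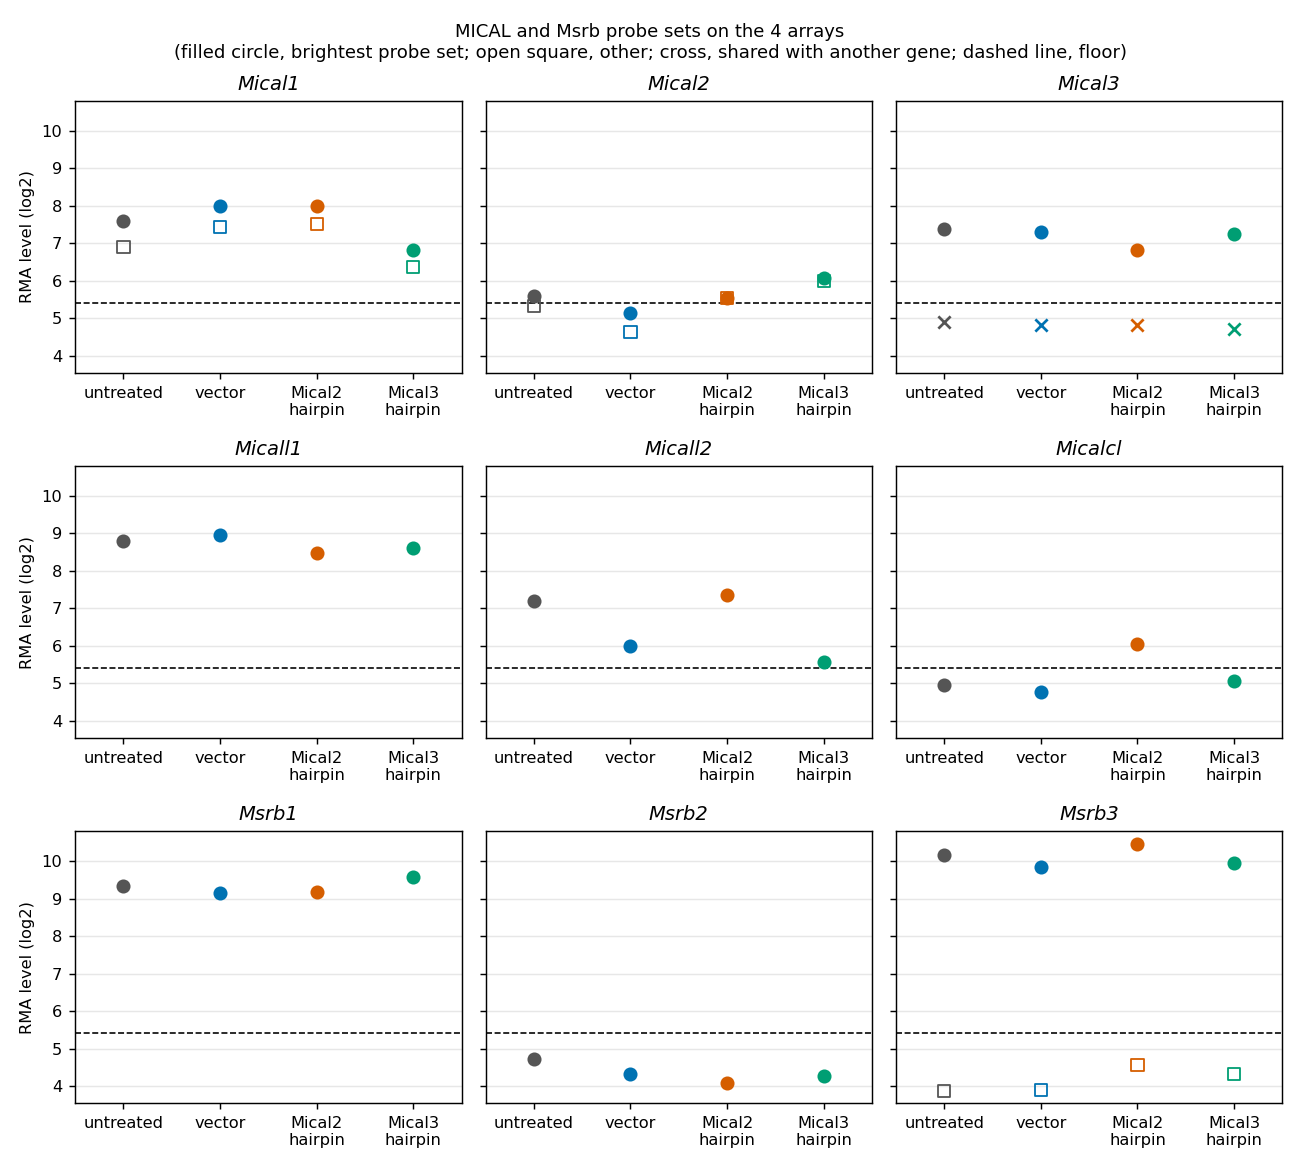
RMA log2 level (vertical axis) of every probe set of the 9 genes on the 4 arrays (horizontal axis), 1 point per array, with no error bars since each group has 1 array. Filled circles are the brightest probe set, open squares another probe set of the gene, crosses the probe set shared by Mical3 and Gm43915, and the dashed line is the floor of 5.41; Mical2 lies near that line and is highest on the Mical3-labelled array, at 6.08.

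Among the relatives without the monooxygenase domain, Micall2 had the widest range of the 9 genes. Micall2, also called JRAB, binds Rab13 and Rab8 and takes part in building cell junctions. It read 7.19 on the untreated array, 6.01 on the vector array, 7.36 on the Mical2-labelled array and 5.56 on the Mical3-labelled array. The untreated array and the Mical2-labelled array were thus high, 0.17 apart, and the other arrays low, 0.45 apart. Micall2 was called lower on the vector than on the untreated array, by 1.18, a 2.27-fold difference that 1.71% of tested genes matched or exceeded. It was called higher on the Mical2-labelled array than on the Mical3-labelled array, by 1.80, or 3.48-fold, and 1.59% of genes matched that. It is read by 1 probe set, so no second reading of it exists on these arrays.

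Micalcl, a short relative that resembles the C-terminal part of MICAL proteins, is the next protein-coding gene after Mical2 and lies on the same strand. It read 4.96 on the untreated array, 4.76 on the vector array, 6.06 on the Mical2-labelled array and 5.06 on the Mical3-labelled array. Only the Mical2-labelled array was above the floor, by 1.30 over the vector array and 1.10 over the untreated array, and Micalcl was called higher there against both controls. Of the genes tested, 2.24% stood as far above the vector array and 1.09% as far above the untreated array. Over the Mical3-labelled array the difference was 1.0, exactly at the limit of the rule. With the other arrays below the floor, the linear ratio of 2.46 to the vector array compares a measured level with background.

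Micall1, which organises recycling endosomes with EHD proteins and Rab GTPases, was nearly level. It read 8.79 on the untreated array, 8.97 on the vector array, 8.47 on the Mical2-labelled array and 8.60 on the Mical3-labelled array. The range of 0.50 lay below the median range of 0.55 over the 12166 genes that reach the floor.

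The reductases showed no call in any comparison. Msrb1, a selenoprotein of cytosol and nucleus, read 9.34 on the untreated array, 9.15 on the vector array, 9.19 on the Mical2-labelled array and 9.59 on the Mical3-labelled array. Its Mical2-labelled array lay 0.04 above the vector array and 0.15 below the untreated array. From high to low the arrays stood in the order of the brighter Mical2 probe set, with the Mical3-labelled array first and the vector array last, and the range of 0.44 was the narrowest of the 9 genes.

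Msrb3, a reductase of the endoplasmic reticulum, read 10.17 on the untreated array, 9.85 on the vector array, 10.47 on the Mical2-labelled array and 9.96 on the Mical3-labelled array. The Mical2-labelled array was highest, by 0.62 over the vector array and 0.30 over the untreated array, and 8.66% and 14.7% of genes stood as far above those arrays. A dimmer Msrb3 probe set was below the floor throughout, from 3.87 to 4.57, and was highest on the same array. Msrb2, a mitochondrial reductase, was below the floor on every array, at 4.73 untreated, 4.32 with the vector, 4.09 on the Mical2-labelled array and 4.27 on the Mical3-labelled array.

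Read together against both controls, 1 of 8 members tested was called higher on the Mical2-labelled array (Micalcl) and none lower, beside 0.977% of all genes called higher and 1.75% called lower. Micalcl entered this count only through its high level on the Mical2-labelled array, since its other readings are below the floor, so the count supports nothing about the family. On the Mical3-labelled array none of 7 was called in either direction, beside 1.38% of all genes higher and 2.49% lower. The vector array had none of 7 higher than untreated and 1 lower (Micall2), beside 3.26% and 2.57%. The calls of both hairpin arrays rest on the same vector and untreated arrays. In the direct contrast of the hairpin arrays, which uses neither, Mical1, Micall2 and Micalcl were called higher on the Mical2-labelled array and none lower, 3 of 8, beside 3.81% of all genes higher and 3.72% lower. Here too Micalcl was tested only through its high level on the Mical2-labelled array, and its difference lay exactly at the limit of the rule. With so few members, this count also supports nothing about the family. A range of at least 2-fold over the 4 arrays was reached by those 3 of 8 members and by 20.2% of genes, and with so few members this count says little. The median difference of the members from the vector array was 0.22 on the Mical2-labelled array, against -0.05 over all genes, and -0.05 on the Mical3-labelled array, against -0.03. Against the untreated array it was 0.05 on the Mical2-labelled array, with 4 members higher and 4 lower, and -0.19 on the Mical3-labelled array, with 2 higher and 5 lower, so the sign or size depends on the control. These medians cover 8 members on the Mical2-labelled array and 7 on the Mical3-labelled array. The member that differs is Micalcl, admitted only by its high reading on the Mical2-labelled array. The medians are thus over unlike sets and support nothing about the family.

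**Figure D2:**
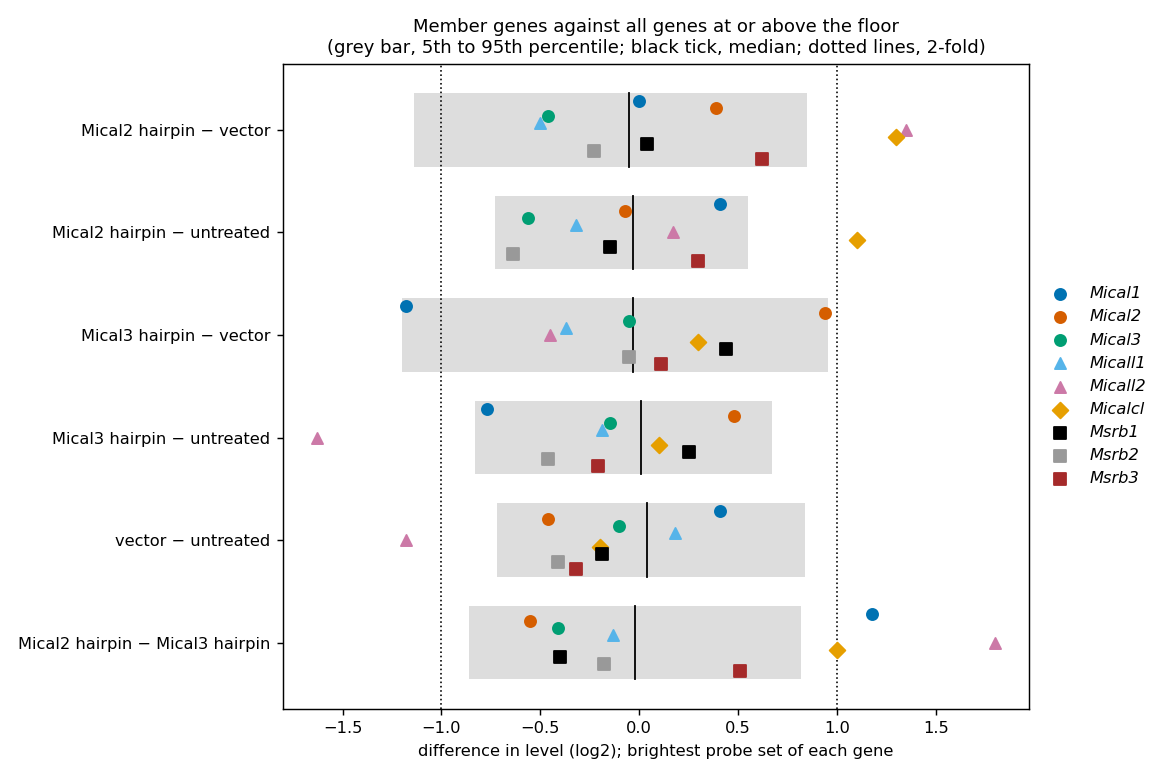
Difference in RMA log2 level (horizontal axis) of the brightest probe set of each of the 9 genes in 6 contrasts (rows), with points coloured by gene and no error bars, since each array is single. Grey bars run from the 5th to the 95th percentile of all genes at or above the floor, black ticks are their medians and dotted lines mark 2-fold. Micall2 and Micalcl lie outside the grey bar where the Mical2-labelled array is set against the vector array, at 1.35 and 1.30, while Msrb2, and Micalcl in the contrasts without the Mical2-labelled array, are below the floor.

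The proteins that work with the family were described by lists. Against both controls, 0.977% of all genes were called higher and 1.75% lower on the Mical2-labelled array. On the Mical3-labelled array these shares were 1.38% and 2.49%. For vector against untreated they were 3.26% and 2.57%, and for the Mical2-labelled against the Mical3-labelled array 3.81% and 3.72%. With so few genes in a list, its count of calls supports nothing about the list. Of 9 Rab GTPases that MICAL or MICAL-like proteins bind, none was called in any of the 4 comparisons. Rab13, the junctional partner of Micall2, was highest on the vector array, at 10.23, and read 9.27 on the untreated array, 8.99 on the Mical2-labelled array and 9.27 on the Mical3-labelled array. Rab35 read 8.90 untreated, 8.73 with the vector, 9.45 on the Mical2-labelled array and 9.60 on the Mical3-labelled array. The list's median difference from the vector array was 0.03 for the Mical2-labelled array and 0.20 for the Mical3-labelled array.

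Plexins and neuropilins are semaphorin receptors, plexins bind MICALs, and the CRMP proteins, encoded by Crmp1 and the Dpysl genes, act downstream of them. Of 11 such genes, read by their brightest probe sets, 1 was called against both controls on each hairpin array. It was Dpysl3 (CRMP4) each time, in opposite directions. Dpysl3 read 9.33 on the untreated array, 8.92 on the vector array, 10.60 on the Mical2-labelled array and 7.14 on the Mical3-labelled array. It was therefore higher by 1.68 and 1.27 on the Mical2-labelled array, and on the Mical3-labelled array it fell by 1.78 and by 2.19, relative to vector and untreated cells. A further pair of Dpysl3 probe sets had the same direction, at 1.65 and 0.98 above the vector array on the Mical2-labelled array. Plxna2 was called higher on the Mical2-labelled array (7.46) than on the Mical3-labelled array (6.41), and Nrp1 lower on the vector array (9.61) than on the untreated array (10.62). Of the other 3 Plxna2 probe sets, 2 also passed 2-fold, by 1.27 and 1.30, whereas the other 3 of Nrp1 differed by -0.88 to -0.51. On the Mical3-labelled array those 2 Plxna2 probe sets passed 2-fold below both controls, at -1.63 and -1.56 from vector and -1.29 and -1.14 from untreated. On the Mical2-labelled array they stood at -0.36 and -0.26 from the vector array, whereas the brightest stood at 0.51. The other 8 genes were not called in any comparison.

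By their brightest probe sets, endocytic and junctional partners gave no call against both controls among the 8 of 9 measured genes that reached the floor. Pacsin2 and Nedd9 were not analysed here. Ehd1, the membrane-tubule protein that acts with Micall1, read 11.08 untreated, 10.02 with the vector, 11.07 on the Mical2-labelled array and 11.93 on the Mical3-labelled array, and was called lower on the vector than on the untreated array. Its other 3 probe sets differed there by -1.13 to -0.43. On the Mical3-labelled array those 3 passed 2-fold above both controls, by 1.52 to 2.23 over the vector array and 1.08 to 1.10 over the untreated array. The brightest Ehd1 probe set stood 1.91 and 0.85 above them, short of the rule. Erc1, a cortical scaffold, was called lower on the Mical2-labelled array (7.67) than on the Mical3-labelled array (8.67), but its other 3 probe sets, with means from 5.13 to 7.47, did not reach 2-fold there.

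The actins are the substrates of the oxidases. Actb, a cytoplasmic actin, lay between 14.76 and 14.96 and Actg1, the other cytoplasmic form, between 14.05 and 14.46, each lowest on the vector array. Of the 6 actin genes, Acta1 and Actg2, muscle forms, were called higher on the Mical3-labelled array against both controls, at 7.93 and 7.07. Acta2, smooth muscle actin, read 13.67 untreated, 11.61 with the vector, 13.80 on the Mical2-labelled array and 14.49 on the Mical3-labelled array. Acta2 and Actg2 were called lower on the vector than on the untreated array, while a further pair of Acta2 probe sets, with mean levels of 5.05 and 4.17, differed there by -0.52 and -0.19. The brighter of that pair read 6.21 on the Mical3-labelled array, 2.18 above the vector array and 1.66 above the untreated array, past 2-fold against both. The dimmer stayed below the floor. In turn, Actg2 (4.70) was called lower on the Mical2-labelled array than on the Mical3-labelled array. Actg2 lay below the floor on the vector array (3.96) and on the Mical2-labelled array. Its differences from those arrays thus compare a measured level with background. No actin was called on the Mical2-labelled array against both controls. Of the SRF and MRTF factors, none of the 3 above the floor was called in any comparison. Srf read 9.13 untreated, 8.70 with the vector, 9.21 on the Mical2-labelled array and 9.43 on the Mical3-labelled array. Mrtfb read 9.86, 10.44, 9.73 and 9.81 in the same order.

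Msra reduces the other stereoisomer of methionine sulfoxide, and thioredoxin returns electrons to the reductases. None of these 7 genes was called. Msra read 7.02 untreated, 6.65 with the vector, 7.87 on the Mical2-labelled array and 7.24 on the Mical3-labelled array, which is 1.22 above the vector array but 0.85 above the untreated array. Txnrd1, thioredoxin reductase, read 11.48, 11.25, 12.14 and 11.48 in the same order. The list's medians on the Mical2-labelled array stood at 0.39 against the vector and at 0.43 against untreated cells, beside -0.05 and -0.03 over all genes.

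Msrb1 needs selenocysteine, for which 8 genes of the insertion machinery were listed. None was called against both controls, and Sephs2 and Eefsec were called lower on the Mical2-labelled array than on the Mical3-labelled array. Sephs2, which makes the selenium donor, read 9.71 untreated, 9.92 with the vector, 9.40 on the Mical2-labelled array and 10.42 on the Mical3-labelled array. A further pair of Sephs2 probe sets differed between the hairpin arrays by -1.12 and -1.04. Eefsec, the elongation factor for selenocysteine, read 8.34, 8.44, 7.46 and 8.67 in the same order, lowest on the Mical2-labelled array. Msrb1 itself was 0.40 lower on the Mical2-labelled array than on the Mical3-labelled array and was not called.

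**Figure D3:**
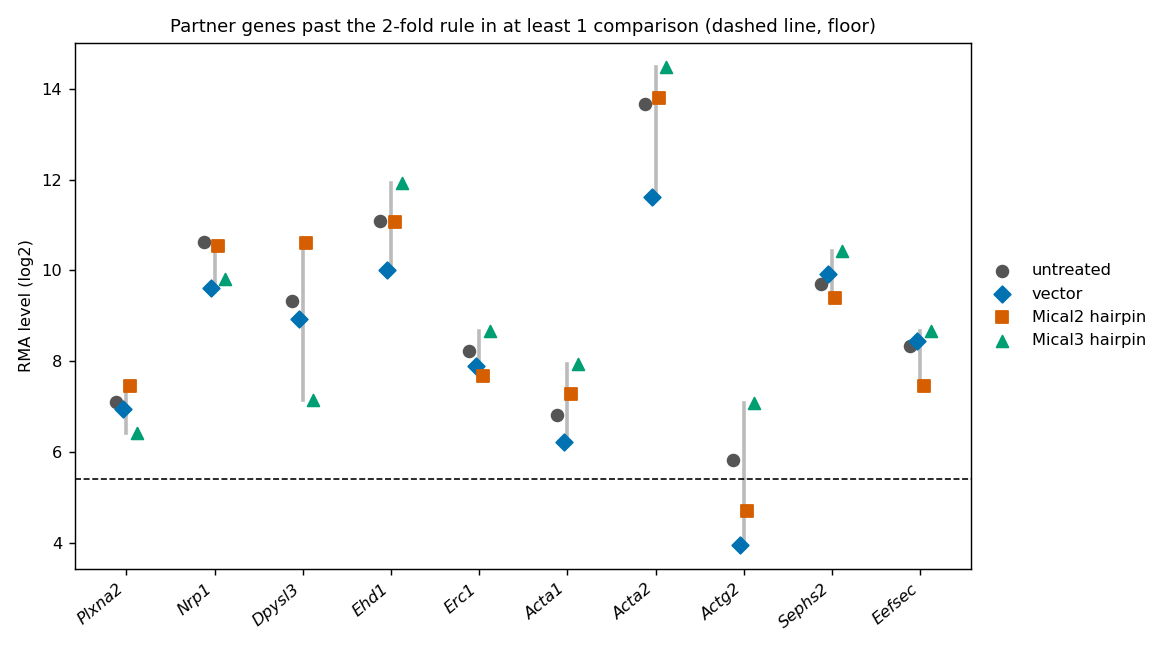
RMA log2 level (vertical axis) on the 4 arrays for the 10 listed partner genes past the 2-fold rule in at least 1 of the 4 comparisons (horizontal axis), with 1 symbol per array, grey lines spanning the range and no error bars, since each group has 1 array. Dpysl3 is highest on the Mical2-labelled array (10.60) and lowest on the Mical3-labelled array (7.14), and Acta2 and Actg2 are lowest on the vector array (11.61 and 3.96).

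The genes nearest to a member in pattern were found by centring each gene on its own mean and taking the root mean square distance over the 4 arrays, among 11127 genes. For Micall2 they were Col6a2 (distance 0.08) and Col6a1 (0.11), which encode chains of collagen VI, and Snhg18 (0.12), a noncoding host transcript. Col6a2 read 12.14 untreated, 10.93 with the vector, 12.29 on the Mical2-labelled array and 10.67 on the Mical3-labelled array. For Mical1 they were Gphn (0.03), Filip1l (0.03) and Cd47 (0.06), and for Micalcl Foxs1 (0.02), Bend6 (0.05) and Cfap69 (0.08). For Mical2 they were Frmd4a (0.02), Trub1 (0.02) and Suv39h2 (0.03). With 4 arrays such likeness is common, since 915 genes lay within 0.2 of Mical2, 111 of Mical1, 39 of Micalcl and 10 of Micall2.

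**Figure D4:**
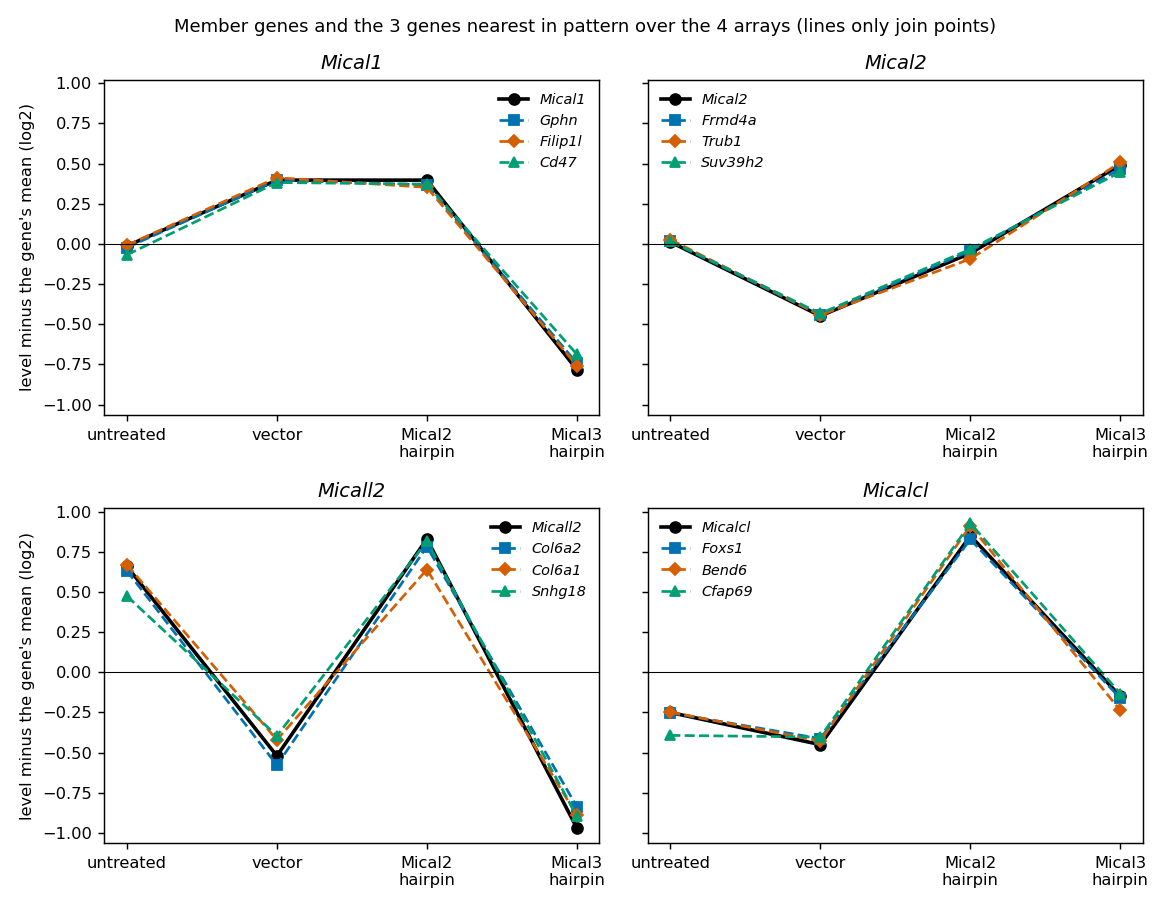
Level minus the gene's own mean (log2, vertical axis) on the 4 arrays (horizontal axis) for Mical1, Mical2, Micall2 and Micalcl (black) and the 3 genes nearest to each (coloured), with lines that only join points and no error bars. Micall2 and Col6a2 are both low on the vector array and the Mical3-labelled array, at 6.01 and 10.93 and at 5.56 and 10.67.

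Some markers of other cell types also differed between the arrays. Of 7 mesenchymal genes, Thy1 and Lum were below the floor throughout, and the 5 others were all called lower on the vector than on the untreated array. Over all genes, 2.57% were called lower there. The summed linear level of the 7 genes was 39041 on the untreated array and 7030 on the vector array. It was 29223 on the Mical2-labelled array and 9808 on the Mical3-labelled array, so high and low on the same arrays as Micall2. In a linear sum the brightest genes weigh most, and Col1a2 read 14.49, 11.64, 14.06 and 6.19 in that order. Not every gene of the list followed that order, since Dcn read 12.36, 10.52, 12.27 and 12.79 and so was highest on the Mical3-labelled array. Pdgfrb, high and low on the same arrays as Micall2, read 10.28, 8.13, 10.71 and 3.55 on the arrays listed likewise, and 6.97, 5.94, 7.32 and 5.56 by its dimmer probe set. The 4 epithelial genes summed to 514, 221, 564 and 635, with Cdh1 below the floor, and the 3 measured leukocyte genes to 136, 327, 144 and 187, with Ptprc below the floor. The part of these differences in the values of Micall2, Mical1 and Dpysl3 was not tested.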

How the data were processed

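Total RNA of 4 groups with 1 array each was measured, each array holding RNA pooled from 3 biological replicates, per the labels. The authors deposited log2 levels per probe set made with RMA, per the submitters' processing notes, whose version and settings the sources used here do not give. The values were used without further scaling. Symbols came from the platform annotation, updated through gene identifiers against a RefSeq table of GRCm38.p6, which matched 34741 of 34945 probe sets with a single symbol. The rule of size was applied to those of 18193 genes that reached the floor in a comparison, and its code was tested on simulated data. The genes named are all 9 members, the listed partners that were called (or, in a list with none called against any array, the 2 with the largest difference of the Mical2-labelled array from the vector array), the 3 nearest genes in pattern to Mical2 and to members ranging over at least 2-fold, and the markers. Actb and Actg1 fall outside that rule and were named after their values were seen. Members and lists were chosen with earlier results of these data known. In all, 13 alternatives changed the control, the fold, the floor, the probe set, the normalization or the scale. Hairpin letters came from the labels, and miRNA and promoter letters from RefSeq (GRCm38.p6). The number of arrays limits the precision. Python 3.11.15, numpy 2.4.6, pandas 2.3.3, statsmodels 0.14.6 and matplotlib 3.10.9 were used.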

Additional observations from a re-analysis of the deposited data

How the results depend on the processing

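The counts of called members are small, and single genes decide them. On the Mical2-labelled array the count of 1 became 2 with the vector alone as control (Micall2 joins Micalcl), and 0 at 3-fold, with the floor at the 75th percentile or with 16 added on the linear scale. On the Mical3-labelled array the count of 0 became 1 with the vector only (Mical1), with the untreated only or the mean of controls (Micall2), and at 1.5-fold (Mical1), each lower. For the vector against untreated, the count of 1 became 0 at 3-fold and with the floor at the 75th percentile. Between the hairpin arrays the count of 3 became 1 at 3-fold and 0 with the floor at the 75th percentile, and Micalcl dropped out after a repeated quantile normalization, a loess fit and 16 added on the linear scale. Of 324 differences of single members recomputed with another probe set, normalization or scale, 313 moved by less than the spread between probe sets, 11 moved by more and no called difference changed sign. Members with a single probe set give the same value under every choice of probe set. Part of the 313 was therefore fixed in advance, and their share is no measure of robustness. The dimmer probe sets account for 6 of those 11 as the highest variance choice, with Mical2 on the Mical3-labelled array at 1.36 above the vector array in place of 0.94. Levels near the floor (Mical2, Micalcl, Msrb2) limit what can be seen, and no replicate could be left out, since each group has 1 array. No paired analysis was possible because each group has 1 array.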

Other observations

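The genes around Mical2 were looked up after the values of Micalcl had been seen, in the order of protein-coding genes of GRCm38.p6. Before Mical2 lie Galnt18, Usp47 and Dkk3, and after Micalcl lie Parva, Tead1 and Rassf10. Usp47 read 10.29 on the untreated array, 10.44 on the vector array, 10.02 on the Mical2-labelled array and 10.27 on the Mical3-labelled array. Parva, an integrin-linked adaptor, read 9.70, 9.5, 9.68 and 9.54 in the same order, and Tead1, the partner of YAP, read 10.96, 10.57, 10.52 and 11.37. None of these 3 genes shared the high reading of Micalcl on the Mical2-labelled array, and neither did Dkk3, at 5.21 there. Galnt18 and Rassf10 were below the floor on every array, with their highest readings on the Mical2-labelled array, at 5.17 and 5.14.

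The seed of the Mical2 antisense arm, TGCTTCC, is also the seed of 1 of 1738 mouse miRNAs in the RefSeq table, and the seed of the Mical3 arm is that of none. The miRNA is given here with its seed in capitals, as a match of letters only.

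mmu-miR-6943-3p: cUGCUUCCauaccccuacccag

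The 11 promoter windows of the 9 genes, each 300 bases around a RefSeq start, were searched on both strands for the CArG box, the element that SRF binds (any overlap of matches counted once). No match occurs in them, beside 1.63% of all 32851 windows, which says nothing of SRF elsewhere.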
